A study of Abies pinsapo with 24 samples.

Results

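Flavan-3-ols and the condensed tannins built from them are made by the flavonoid pathway, and conifers hold them in needles, bark and roots. Chalcone synthase joins a coumaroyl unit to malonyl units and so commits carbon to flavonoids. Near the end of the pathway, leucoanthocyanidin reductase converts leucoanthocyanidins to catechin-type flavan-3-ols, whereas anthocyanidin reductase converts anthocyanidins to epicatechin-type flavan-3-ols. The data described here are the RNA levels of 1 feature of each of these 3 enzymes in needles and roots of adult Spanish fir (Abies pinsapo), 3 of the 51046 features of the count table.

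The 3 features were chosen with their higher spring than autumn levels in roots already known, so their root season values are given below as a description, without a test. The chalcone synthase feature, Gene_21623_ap_14587_g_21623 (called CHS below), covered positions 1 to 502 of the minus strand of reference sequence ap_14587 and held an internal reading frame of 167 residues, with a best hit in Pinus sylvestris. The anthocyanidin reductase feature, Gene_64_ap_36_g_64 (ANR), covered positions 1 to 1541 of the minus strand of ap_36, with a complete frame of 337 residues and a best hit to a putative anthocyanidin reductase of Ginkgo biloba. The leucoanthocyanidin reductase feature, Gene_9250_ap_6596_g_9250 (LAR), covered positions 1 to 1258 of the plus strand of ap_6596, with a frame of 362 residues that lacked its 5′ end and a best hit in Desmodium uncinatum, a legume. Each was the only feature on its reference sequence, and the enzyme names rest on these best hits. Reads of near-identical family copies could be shared between features, so the value of 1 copy is uncertain to that degree.

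Needles and roots were collected from wild trees aged 30 to 50 years at Yunquera, the lower site (1100 to 1200 m), and at Ronda, the upper site (1700 to 1800 m), in autumn (September 2022) and in spring (May 2023). The labels give 6 trees, here taken as trees 1 to 3 at Yunquera and 4 to 6 at Ronda from their replicate numbers, although the design text speaks of a larger random draw on each occasion. Each of the 8 combinations of organ, site and season had 3 libraries, with no treatment and no control group, and each season was 1 harvest, so that season and calendar year cannot be told apart. RNA of the 2 organs was isolated by different procedures (a column kit for roots only), so that organ and isolation procedure cannot be told apart either.

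Libraries held 13355301 to 27427263 counts. The 68 counted features with light-harvesting or photosystem best hits made up 2.42% to 5.06% of the counts of the 11 needle libraries used and 0.0322% to 0.106% of those of the 11 root libraries used. The library labelled spring needles of tree 6 stood at 0.0268% and the library labelled spring roots of tree 5 at 2.78%, each in the range or near the range of the other organ. Both were set aside, which left 22 libraries, and their values are given separately where they bear on a result. Levels are CPM, the share of a library taken by a feature with the library total scaled by TMM normalization factors.

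In roots of Yunquera, CHS stood at 1.18, 2.34 and 0.870 CPM in autumn (trees 1 to 3) and at 340.5, 536 and 60.0 CPM in spring. In roots of Ronda, it stood at 28.0, 227.6 and 29.1 CPM in autumn (trees 4 to 6) and at 252 and 529 CPM in spring (trees 4 and 6). The spring libraries were above all autumn libraries within each site. Over both sites the groups overlapped, since the autumn library of tree 5 lay above the spring library of tree 3. Between seasons, edgeR called 1.18% of all features at Yunquera and 0.135% at Ronda. These are not shares of features without overlap, which were not computed, and nothing is read from the separation. Over both sites, CHS averaged 48.2 ± 88.9 CPM in autumn roots (SD, n = 6) and 344 ± 200.2 CPM in spring roots (SD, n = 5).

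ANR spanned a narrower range in roots. It stood at 36.0, 63.3 and 49.8 CPM in autumn roots of Yunquera and at 155, 90.7 and 101 CPM in those of Ronda. In spring it stood at 457, 521 and 159 CPM at Yunquera and at 463 and 709 CPM at Ronda. No autumn root library reached the lowest spring root library. ANR was chosen with this difference known, and the share of all features so separated was not computed, so nothing is read from it. The means were 82.6 ± 43.0 CPM in autumn (SD, n = 6) and 462 ± 197.7 CPM in spring (SD, n = 5).

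LAR was a low feature in roots. In autumn roots of Yunquera it had 0, 1 and 0 counts, where 0 counts allow up to 3 counts in a library, and in those of Ronda it stood at 2.83, 2.27 and 0.764 CPM. In spring it stood at 9.58, 16.3 and 5.99 CPM at Yunquera and at 8.36 and 12.04 CPM at Ronda. All spring root libraries were above all autumn root libraries, and as for ANR nothing is read from this separation. In the library labelled spring roots of tree 5, which was set aside, LAR had 5722 counts (267 CPM), far above the other spring root libraries, while CHS (359 CPM) and ANR (334 CPM) lay inside their spring root ranges.

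The fitted root season differences (spring minus autumn, log2, both sites) were 4.85 ± 0.78 (SE) for CHS, 2.61 ± 0.34 for ANR and 5.45 ± 0.67 for LAR, beside a median of 0.03 over the 18538 features tested. Of these, 5.54% passed an adjusted p of 0.05 (2.41% higher and 3.13% lower in spring), and since the members were chosen on this contrast nothing is read from their place in it. In roots of Yunquera, LAR had 697 counts in spring against 1 in autumn, a ratio of 486 in level. This ratio rests on the 1 autumn count and on reads pooled over trees, and it is a description only. With the set-aside libraries returned to their labels, the LAR difference was 7.08. In bulk tissue, fewer cells of a type and less RNA per cell cannot be told apart, and this holds for every level given here.

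**Figure D1:**
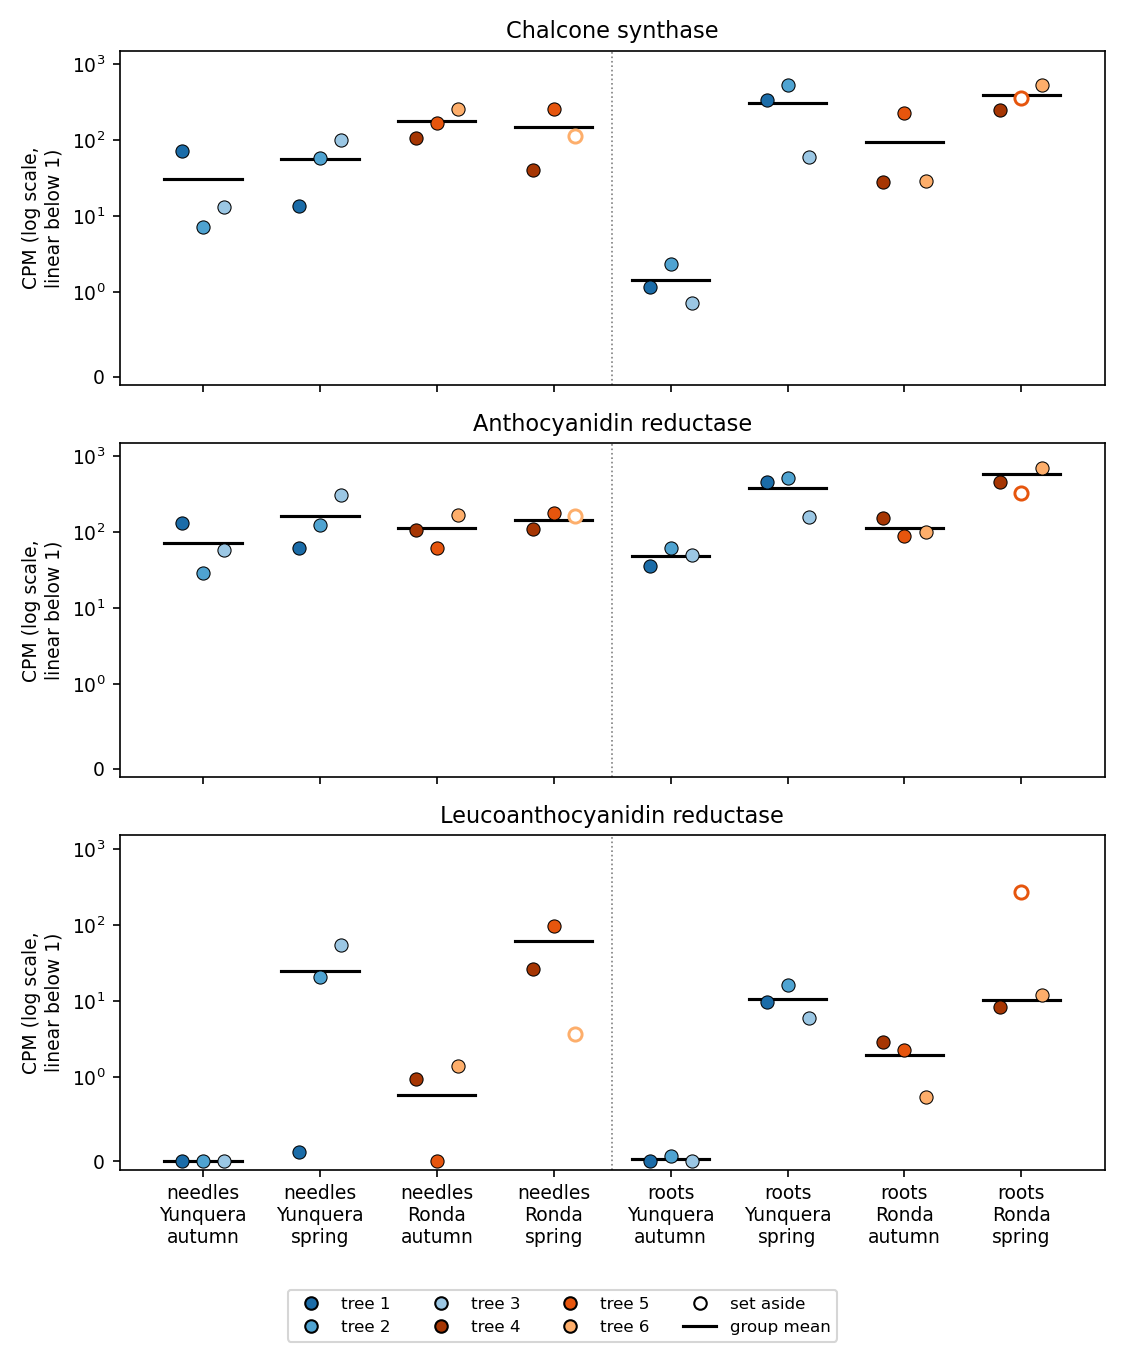
CPM (log axis, linear below 1) of the 3 features in each library, grouped by organ, site and season. Filled points are libraries used, coloured by tree, open points are the 2 libraries set aside, and bars are group means. In autumn roots of Yunquera, CHS lies between 0.870 and 2.34 CPM and LAR at or near 0, and both are above these values in every spring root library.

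The trees with both root libraries (1, 2, 3, 4 and 6) all had higher levels of the 3 features in spring. For CHS the ratio of spring to autumn CPM ran from 9.0 in tree 4 to 287 in tree 1, with a median of 69.0. For ANR it ran from 2.99 in tree 4 to 12.7 in tree 1, with a median of 7.01. For LAR it was 2.96 in tree 4 and 15.8 in tree 6, while the Yunquera trees had 0 or 1 autumn counts. Tree 4, from the upper site, thus had the lowest ratio for CHS and for ANR.

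The season change in needles was not used to choose the features and was therefore tested (edgeR's quasi-likelihood test, Benjamini-Hochberg adjustment over 20560 features, of which 15.3% were called, 8.79% higher and 6.49% lower in spring). LAR rose, and it was the only called feature of the 3. LAR had 0 counts in every autumn needle library of Yunquera and stood at 0.978, 0 and 1.37 CPM in those of Ronda. In spring it stood at 0.109 (2 counts), 20.5 and 54.4 CPM at Yunquera and at 26.0 and 97.2 CPM at Ronda. Over both sites the groups overlapped only through the spring library of tree 1, whose 2 counts lie under the 3 that a count of 0 allows.

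The fitted LAR difference in needles was 9.08 ± 1.86 (log2, SE; edgeR adjusted p = 0.0180), a size that depends on how counts of 0 are handled. As a bound that takes 0 counts as up to 3, the mean in spring needles of Yunquera was at least 439-fold higher than 3 counts over the autumn group allow. Trees 2 and 3 carry this mean. In tree 1 the spring level (0.109 CPM) lay under the 0.18 CPM that 3 counts give in its autumn library, so no rise is shown there. Within the other trees with both libraries, LAR was at least 118-fold higher in tree 2, at least 341-fold in tree 3 and at least 741-fold in tree 5, each against 3 counts in the autumn library. In tree 4 it was 26.6-fold higher. The call was lost with the tree as a block (adjusted p = 0.0795), without the autumn needles of tree 4 (adjusted p = 0.0513) and without the spring needles of tree 5 (adjusted p = 0.0519). Within Yunquera alone the difference was 11.90 ± 3.14 (adjusted p = 0.0622; 8.42% of features were called) and within Ronda alone 6.27 ± 2.03 (adjusted p = 0.172; 2.51% were called), and neither passed. The LAR libraries of the 2 seasons did not overlap at Ronda (3 autumn and 2 spring libraries). The share of all features so separated was not computed, so nothing is read from this. At Yunquera the spring library of tree 1 could not be told from the autumn libraries at this depth. At Yunquera the LAR difference passed by DESeq2 (adjusted p = 8.62e-05, with 17.4% of features called by that tool) and, by edgeR, without the spring needles of tree 1 (adjusted p = 0.0174). The library labelled spring needles of tree 6, set aside, held 76 LAR counts (3.70 CPM).

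CHS did not pass in needles. It stood at 71.4, 7.21 and 13.1 CPM in autumn at Yunquera and at 108, 166 and 256 CPM in autumn at Ronda. In spring it stood at 13.5, 57.6 and 100.1 CPM at Yunquera and at 39.98 and 258 CPM at Ronda. Seasons overlapped at both sites, and the trees did not move one way: spring CPM was 0.189 times the autumn value in tree 1 and 0.372 times in tree 4, but 8.0 times in tree 2, 7.65 times in tree 3 and 1.55 times in tree 5. The fitted difference was 0.29 ± 0.74 (log2, SE; edgeR adjusted p = 0.854), and it was negative when the spring needles of tree 3 or of tree 5 were left out. Without both needle libraries of tree 1 it was 1.33 (adjusted p = 0.146).

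ANR did not pass in needles either. It stood at 131, 29.0 and 58.9 CPM in autumn and 61.9, 125 and 315 CPM in spring at Yunquera, and at 108, 62.2 and 169 CPM in autumn and 111 and 179 CPM in spring at Ronda. It was higher in spring in 4 of 5 trees, with tree 1 the exception at 0.471 times the autumn value, and the seasons overlapped at both sites. The fitted difference was 0.74 ± 0.51 (log2, SE; edgeR adjusted p = 0.380). It ran from 0.32 without the spring needles of tree 3 to 1.11 without the autumn needles of tree 1, and was 1.31 without both needle libraries of tree 1 (adjusted p = 0.0742).

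**Figure D2:**
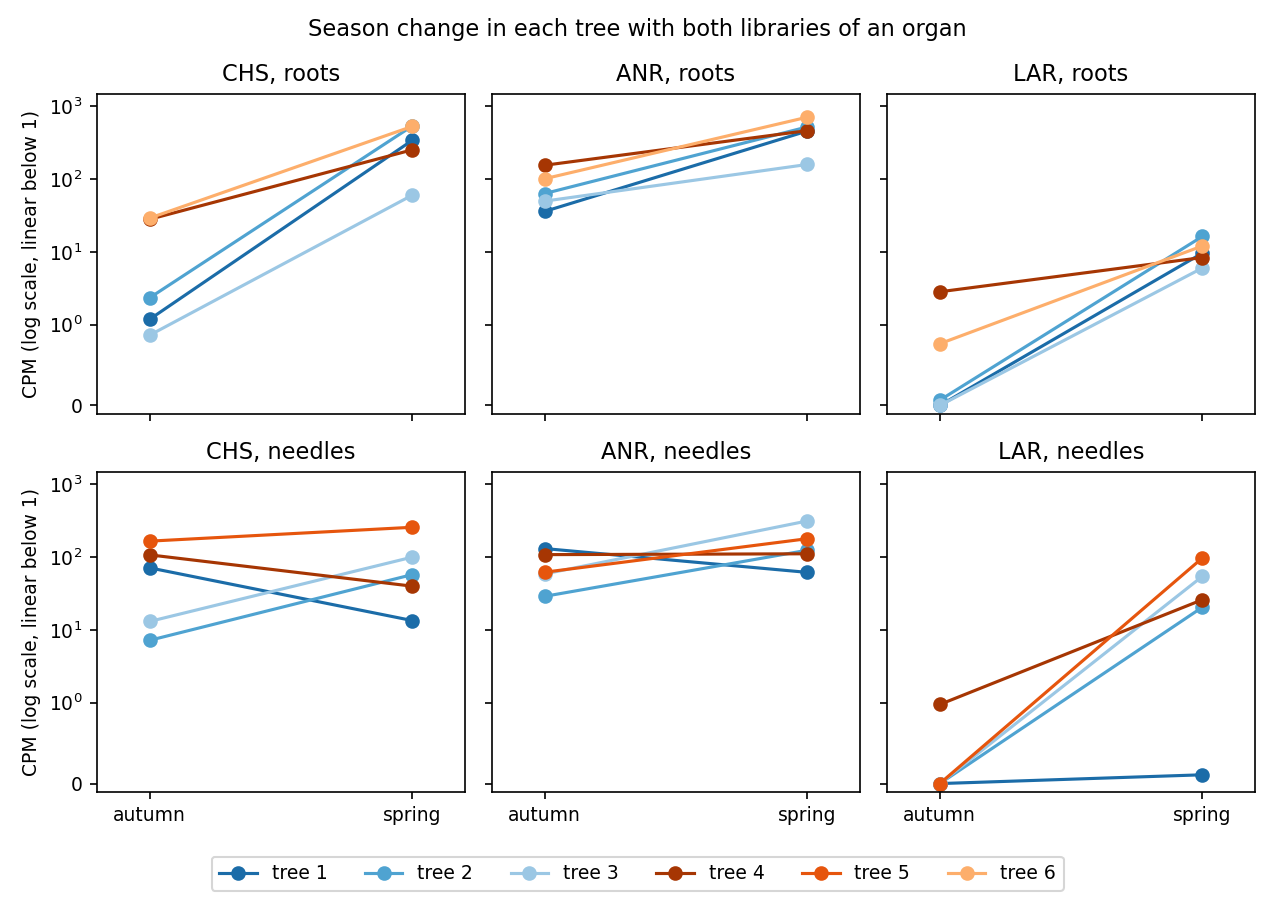
CPM (log axis, linear below 1) in autumn and spring for each tree with both libraries of an organ, 1 line per tree, roots above and needles below. All root lines go up from autumn to spring, the CHS needle lines of trees 1 and 4 go down, and LAR in needles leaves 0 or near 0 in trees 2 to 5.

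Site was a second comparison. In roots it is made within the groups whose season difference led to the choice, so the root site values are given as a description, without a test. In autumn roots, all 3 features stood higher at Ronda than at Yunquera with no overlap between the sites. In this comparison edgeR called 0.0324% of features, and 2141 of 18538 had an unadjusted p under 0.05. The share of all features without overlap was not computed, so nothing is read from the separation. The differences (Ronda minus Yunquera, log2) were 5.98 ± 1.15 (SE) for CHS, 6.11 ± 1.04 for LAR and 1.18 ± 0.45 for ANR. Without the autumn roots of tree 5, the CHS difference was 4.23. For LAR the autumn level at Ronda rested on 109 counts against 1 at Yunquera, a ratio of 93.2 that depends on this 1 count.

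In spring roots the site differences were 0.36 ± 1.01 for CHS, 0.66 ± 0.49 for ANR and -0.03 ± 0.79 for LAR (log2, SE). No feature of the whole table was called there by edgeR (0.0%, with 564 at an unadjusted p under 0.05, and 88 called by DESeq2). The ranges of the 2 sites overlapped for all 3 features. The root season difference was thus 7.66 ± 1.24 for CHS at Yunquera and 2.03 ± 1.02 at Ronda, and 8.52 ± 1.09 against 2.38 ± 0.80 for LAR, while ANR had 2.87 ± 0.47 and 2.35 ± 0.49. Without the autumn roots of tree 5, the CHS difference at Ronda was 3.78.

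The difference between the sites in the root season change (Ronda minus Yunquera) was -5.63 ± 1.55 for CHS, -6.14 ± 1.35 for LAR and -0.52 ± 0.66 for ANR (log2, SE). It too is given without a test. With the tree as a block the CHS value was -3.68, and with the set-aside libraries returned to their labels the LAR value was -2.92. No feature was called by edgeR in this comparison (0.0%, with 744 at an unadjusted p under 0.05, and 77 called by DESeq2).

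In autumn needles, CHS was also higher in every Ronda library than in any Yunquera library, by 2.50 ± 1.05 (log2, SE). In that comparison edgeR called 1.71% of features, with 3998 of 20560 at an unadjusted p under 0.05. The share of all features without overlap was not computed. In needles site was tested, and the edgeR adjusted p of CHS was 0.235. Without the autumn needles of tree 1 the CHS difference was 4.11 (adjusted p = 0.107). LAR was higher at Ronda by at least 13.7-fold against 3 counts over the Yunquera group, but tree 5 at Ronda had 0 counts too and the adjusted p was 0.330. Its fitted difference was 6.92 ± 3.58, or 3.28 ± 8.53 with the tree as a random term in limma. ANR differed by 0.61 ± 0.69 (adjusted p = 0.659). In spring needles the site differences were 1.38 ± 1.09 for CHS, -0.21 ± 0.77 for ANR and 1.29 ± 1.70 for LAR, and the lowest edgeR adjusted p of the 3 was 0.661. The random term gave 3.24 for LAR. No feature was called there by edgeR (0.0%, with 2153 at an unadjusted p under 0.05, and 622 called by DESeq2). The needle season change did not differ between sites at the threshold for CHS (-1.12 ± 1.5), ANR (-0.82 ± 1.04) or LAR (-5.63 ± 4.39), with an edgeR adjusted p of at least 0.911 and no feature called (0.0%, with 1369 at an unadjusted p under 0.05, and 220 called by DESeq2).

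Averaged over seasons and sites, none of the 3 features passed between organs, in a comparison in which 41.6% of 21600 features were called. The differences (needles minus roots, log2, SE) were 0.37 ± 0.54 for CHS, -0.65 ± 0.32 for ANR and 0.12 ± 0.38 for LAR, with edgeR adjusted p of 0.653, 0.116 and 0.870. The ANR difference passed without both needle libraries of tree 1 (-0.75, adjusted p = 0.0430), without the autumn needles of tree 1 alone (-0.83, adjusted p = 0.0386) and without the spring needles of tree 3 (-0.88, adjusted p = 0.0237). The difference within each season is given without a test because it holds the root groups used in the choice. In autumn the difference was 2.62 ± 0.77 for CHS, 0.26 ± 0.42 for ANR and -1.72 ± 1.93 for LAR, and in spring it was -1.87 ± 0.83, -1.55 ± 0.48 and 1.96 ± 1.02. The ANR autumn value turned to -0.12 without the needles of tree 1.

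Ordered by group mean, CHS was highest in spring roots of Ronda (391 ± 196 CPM, SD, n = 2) and of Yunquera (312 ± 239, n = 3) and lowest in autumn roots of Yunquera (1.46 ± 0.773, n = 3). Between them, in falling order, came autumn needles of Ronda (177 ± 74.6, n = 3), spring needles of Ronda (149 ± 154, n = 2), autumn roots of Ronda (94.9 ± 115, n = 3), spring needles of Yunquera (57.1 ± 43.3, n = 3) and autumn needles of Yunquera (30.6 ± 35.5, n = 3). Neighbours in this order overlapped in their library values except the last pair, autumn needles and autumn roots of Yunquera.

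ANR had the same groups at its ends, with 586 ± 174 CPM (SD, n = 2) in spring roots of Ronda, 379 ± 193 (n = 3) in those of Yunquera and 49.7 ± 13.7 (n = 3) in autumn roots of Yunquera. The 5 other groups fell from 167 ± 132 CPM in spring needles of Yunquera through spring needles of Ronda (145 ± 48.2), autumn roots of Ronda (116 ± 34.5) and autumn needles of Ronda (113 ± 53.6) to autumn needles of Yunquera (73.1 ± 52.6). All neighbours in that order overlapped.

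LAR differed from both in being highest in needles, with 61.6 ± 50.4 CPM (SD, n = 2) in spring needles of Ronda and 25.0 ± 27.4 (n = 3) in those of Yunquera. Spring roots followed with 10.6 ± 5.21 at Yunquera (n = 3) and 10.2 ± 2.60 at Ronda (n = 2). The autumn groups came last, at 1.95 ± 1.07 in roots of Ronda, 0.781 ± 0.704 in needles of Ronda, 0.0217 ± 0.0375 in roots of Yunquera and 0 in needles of Yunquera (n = 3 each). The one step without overlap between neighbours was that from spring roots to autumn roots of Ronda.

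Levels of different features can be compared per length, and on CPM per kilobase CHS and ANR ranked far above LAR. In spring roots, 99.65% of the 21600 features tested over both organs had a lower mean than CHS, 98.86% a lower mean than ANR and 64.76% a lower mean than LAR. In spring needles the shares were 97.61%, 95.19% and 83.63%. The ratio of CHS to ANR per kilobase had a median of 0.334 in autumn roots (0.0536 to 7.70, 6 libraries) and 2.29 in spring roots (1.16 to 3.16, 5 libraries), and of 2.36 and 1.10 in autumn and spring needles. The ratio of LAR to ANR per kilobase had a median of 0.0257 in spring roots (0.0208 to 0.0462) and 0.212 in spring needles (0.00215 to 0.664). The set-aside library labelled as roots (0.980) lay above both of these LAR ranges, and the set-aside library labelled as needles stood at 0.0271.

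The share of each feature in its family, all features with the same enzyme as best hit, was taken on CPM and not per length. CHS was a minor member of a large output: the 15 chalcone synthase features summed to a median of 3866 CPM in autumn roots and 18584 CPM in spring roots, and CHS made up 0.0326% to 2.31% of the sum in autumn and 0.728% to 2.42% in spring. In needles the family sum had a median of 2984 CPM in autumn and 3161 CPM in spring. ANR was the leading part of its family of 50 features in spring roots, with a median share of 32.4% (22.2% to 42.6%), against 10.03% in autumn roots, 11.3% in autumn needles and 11.9% in spring needles. LAR was a small part of 6 features, at a median of 1.44% in spring roots and 3.94% in spring needles (0.0102% to 12.7%).

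Among the 14 other chalcone synthase features, 13 were tested in roots and all 13 had a positive season difference. Beside 2.41% of all features called higher in spring roots, 4 of the 13 passed. These were Gene_2996 (1.92 ± 0.42, log2, SE; edgeR adjusted p = 0.0303), which had the highest mean CPM of the family, Gene_2788 (2.15, adjusted p = 0.018), Gene_4403 (3.97, adjusted p = 0.013) and Gene_144 (3.74, adjusted p = 0.025). Gene_2996 stood at 1270 ± 973 CPM in autumn roots (SD, n = 6) and 4262 ± 1983 CPM in spring roots (n = 5). In needles, where 8.79% of all features were called higher, 3 of the 14 rose, Gene_7290 (4.24), Gene_6575 (4.34) and Gene_63004 (7.94). No copy was called in both organs, but this rests on the threshold. In roots, Gene_7290 had 2.59 ± 0.94 (edgeR adjusted p = 0.138) and Gene_6575 3.16 ± 0.91 (adjusted p = 0.0733), and Gene_63004 was not tested. In needles, Gene_2996, Gene_2788, Gene_4403 and Gene_144 had 0.34, 0.31, 0.67 and 1.66 and were not called. Whether a copy differed between organs in its season change was not tested. The share of all features with a positive difference was not computed. Copies of 1 family may share reads and are not separate observations, so nothing is read from their common direction.

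Among the 49 other anthocyanidin reductase features, 28 were tested in roots, where Gene_4541 (3.31, edgeR adjusted p = 0.0496) and ap_9507 (1.91, adjusted p = 0.0386) rose and ap_61259 fell by 2.12 (adjusted p = 0.0444). Over all features tested in roots, 2.41% were called higher and 3.13% lower. Gene_4541 had the highest mean of these 49, and its root means of 38.8 ± 66.5 CPM in autumn (SD, n = 6) and 69.7 ± 45.7 CPM in spring (n = 5) overlapped. In needles 33 were tested, and Gene_73885 (1.02) and Gene_18802 (1.99) rose, beside 8.79% of all features called higher and 6.49% lower. Among the 5 other leucoanthocyanidin reductase features, ap_3961 rose in roots (3.32, adjusted p = 0.0345) and Gene_64302 fell by 4.18 in needles (adjusted p = 0.014). The feature of that enzyme with the highest mean CPM, Gene_4535, did not pass: its season difference was 0.31 ± 0.21 in roots (adjusted p = 0.434) and 0.38 ± 0.28 in needles (adjusted p = 0.417), from 295 ± 60.4 to 383 ± 95.7 CPM in roots.

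**Figure D3:**
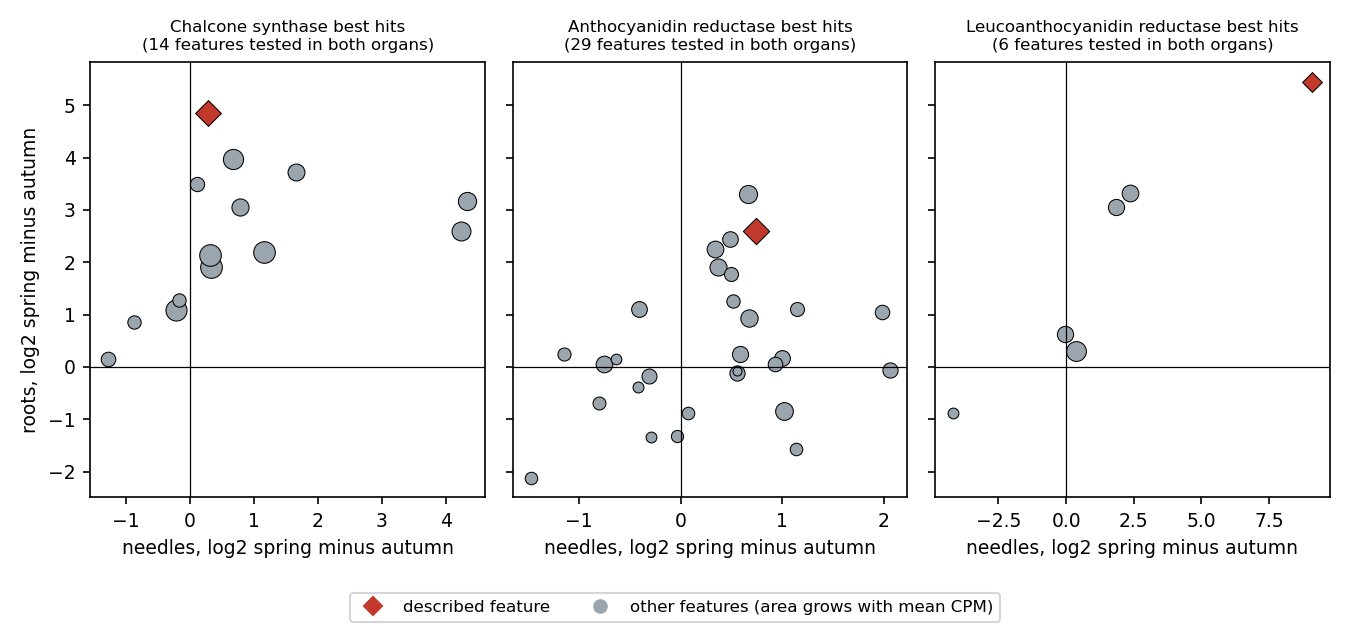
Season change (log2, spring minus autumn) in roots against that in needles for features with each enzyme as best hit and tested in both organs. Diamonds are the 3 features described and circles the other features, with area growing with mean CPM. All chalcone synthase features lie above 0 on the root axis, and the LAR diamond lies farthest right in its panel at 9.08.

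Across the pathway, 165 other features matched the enzyme and regulator names searched. Of these, 41 had no count in any library, and all 41 shared their reference sequence with another feature, and whether this sharing set their counts was not tested. In roots, 14 of the 101 tested rose in spring and 1 fell, against 2.41% higher and 3.13% lower over all features, 71 had a positive difference and the median was 0.94, beside a median of 0.03 over all features. In needles, 13 of 115 rose and 4 fell, with a median of 0.34 beside 0.03. These needle shares are near the 8.79% higher and 6.49% lower over all features. The block by tree gave 23 higher in roots and 5 higher in needles, and leaving out 1 library gave 2 (without the spring roots of tree 6) to 27 (without the autumn roots of tree 5) in roots and 5 (without the spring needles of tree 5) to 17 in needles. These counts are therefore given as a description of the members' surroundings.

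Before chalcone synthase, no feature of phenylalanine ammonia-lyase (3 tested), cinnamate 4-hydroxylase (1 tested) or 4-coumarate-CoA ligase (7 tested) passed in roots. With so few tested and 5.54% of all features called, nothing is read from the absence of calls. Phenylalanine ammonia-lyase, which starts the phenylpropanoid route, was led by Gene_5883 with a root difference of 0.62 ± 0.30 (edgeR adjusted p = 0.255). The leading cinnamate 4-hydroxylase, Gene_12162, had -1.32 ± 0.76 in roots (adjusted p = 0.343) and rose by 2.54 ± 0.56 in needles (adjusted p = 0.0158), and the leading 4-coumarate-CoA ligase, Gene_8725, had -1.02 ± 0.37 in roots (adjusted p = 0.133) and rose by 0.90 ± 0.23 in needles (adjusted p = 0.0270).

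After chalcone synthase, and apart from the reductase copies given above, calls in roots were made for hydroxylases and flavonol synthase. Over all features tested in roots, 2.41% were called higher. Flavanone 3-hydroxylase makes dihydroflavonols, and 2 of 13 of its features rose, Gene_2909 (2.34 ± 0.43, adjusted p = 0.0158) and Gene_140 (4.71 ± 0.85, adjusted p = 0.015). Gene_140 was also the only feature called higher in both organs (2.58 in needles, adjusted p = 0.045), 1 of the 14 higher in roots and 1 of the 13 higher in needles. Hydroxylases of the B ring, which set the hydroxylation pattern of the later products, had 4 of 14 higher in roots, Gene_72706 (2.15), Gene_9511 (3.54), Gene_38353 (3.51) and Gene_68131 (3.81). Their feature with the highest mean CPM, Gene_80871, had 1.66 ± 0.43 (adjusted p = 0.0508). For flavonol synthase, a branch to flavonols, 1 feature had this enzyme alone as its best-hit name, Gene_7233. It rose in roots by 3.09 ± 0.73 (adjusted p = 0.0383) and had -0.33 ± 0.46 in needles (adjusted p = 0.696). Features with the joint name flavonol synthase/flavanone 3-hydroxylase were counted with flavanone 3-hydroxylase. None of these was called in roots or higher in needles. In needles, Gene_67646 (-2.38, edgeR adjusted p = 0.007) and Gene_16302 (-0.37, adjusted p = 0.047) fell.

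For the enzymes that supply the reductases, for chalcone isomerase, for the glucosyltransferase and for the regulators, no feature passed in roots. The numbers tested were 8 for dihydroflavonol 4-reductase, 2 for leucoanthocyanidin dioxygenase and 2 each for chalcone isomerase, glucosyltransferase and regulators. With 5.54% of all features called in roots, nothing is read from this absence either. Dihydroflavonol 4-reductase, which supplies leucoanthocyanidins, was led by Gene_2861 (1.95 ± 0.65 in roots, adjusted p = 0.114). Leucoanthocyanidin dioxygenase, which supplies anthocyanidins, was led by Gene_60032 (0.35 ± 0.52 in roots, adjusted p = 0.740), and in needles its feature Gene_29107 rose by 4.54 ± 1.17 (adjusted p = 0.030). Chalcone isomerase names were led by Gene_2847 (-1.41 ± 0.60 in roots, adjusted p = 0.201), while Gene_6261 rose in needles by 8.54 ± 1.60 (adjusted p = 0.008). Anthocyanidin glucosyltransferase was led by Gene_71557 (-2.02 ± 1.47 in roots, adjusted p = 0.460). Of the regulators, MYB123, known in kiwifruit as a factor acting on anthocyanin synthesis, had 1.43 ± 0.70 in roots and 1.35 ± 0.64 in needles for Gene_9643 (adjusted p = 0.266 and 0.195).

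**Figure D4:**
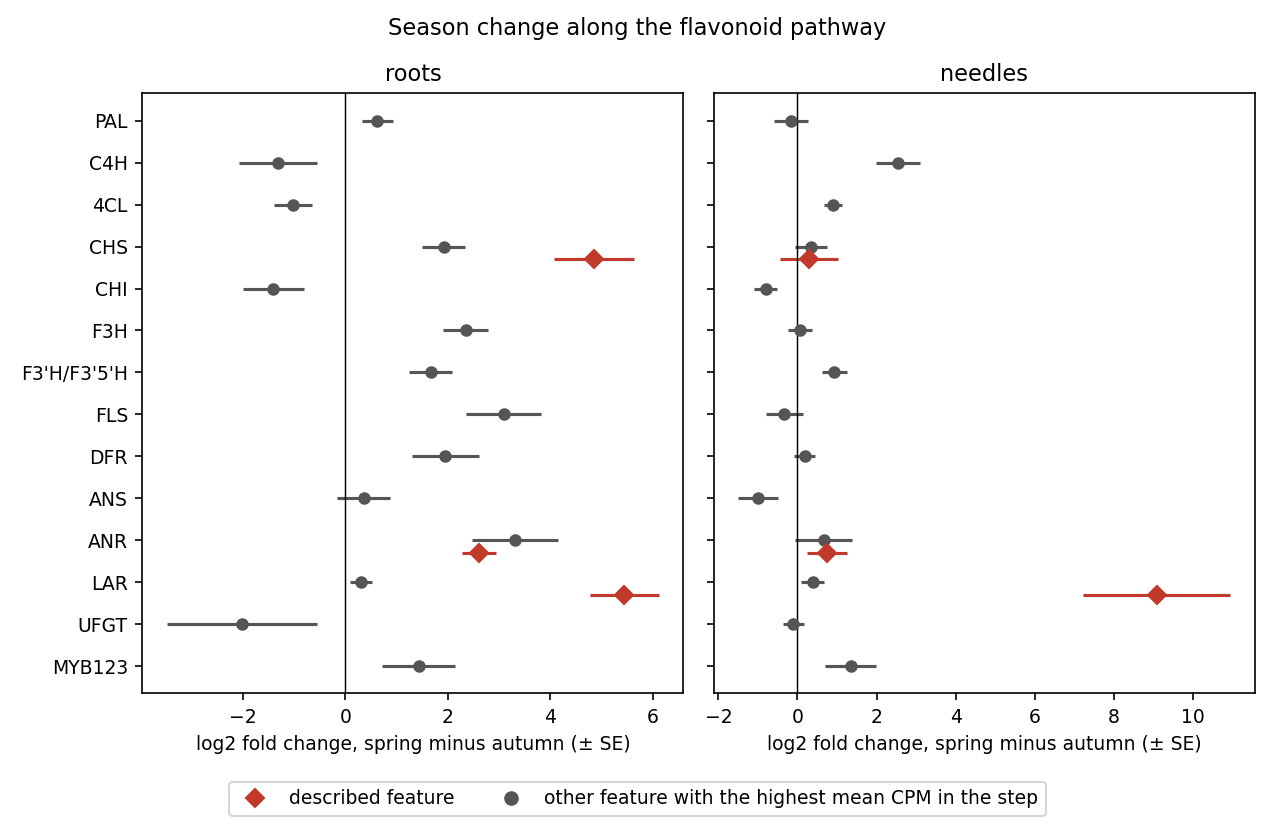
Season change (log2, spring minus autumn, bars are SE) in roots and needles. Circles are the feature with the highest mean CPM at each pathway step, leaving out the 3 features described, which are the diamonds. In roots the diamonds stand at 4.85, 2.61 and 5.45, and in needles the LAR diamond stands at 9.08 with CHS at 0.29 and ANR at 0.74.

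The features with the most similar profile over the 22 libraries were found as those with the smallest root-mean-square difference in log2(CPM + 1), each feature centred on its own mean, among 11812 others with a mean of at least 5 CPM. For CHS the closest were Gene_4403 (0.482) and Gene_144 (0.773), both chalcone synthases, followed by Gene_68131 (0.816), the chalcone synthase Gene_5661 (0.836) and Gene_38353 (0.901), against a median of 2.53 over all features. Of the 95 pathway features in that comparison, 27 were among the 100 nearest to CHS. The profiles of all 3 members include the root season values known at the choice, and family copies may share reads. Nothing is therefore read from these counts of near features.

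For ANR the closest features were Gene_78060, with the best hit NPGR1 of Arabidopsis (0.563), and the flavanone 3-hydroxylase Gene_2909 (0.634), then Gene_10650 (an RNA polymerase subunit, 0.648), Gene_3584 (a UDP-arabinopyranose mutase, 0.648) and Gene_30311 (a rhamnosyltransferase, 0.661), against a median of 1.395. Of the 95 pathway features, 7 were among its 100 nearest. For LAR they were Gene_20087, a histone chaperone (0.953), Gene_3973, a tubulin beta chain (0.979), Gene_14811 (0.997), Gene_79990 (1.02) and Gene_6719, which has no hit (1.03), against a median of 2.17, and 3 pathway features were among its 100 nearest. The members were not each other's closest: ANR ranked 73 and LAR ranked 526 in likeness to CHS, but LAR ranked 7317 and CHS 8357 of 11812 in likeness to ANR, with differences of 1.51 and 1.63 that lie above the median of 1.395. In likeness to LAR, ANR ranked 171 and CHS 3815.

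Markers of other tissues were summed beside the season values. In roots, the A and B cyclins and B-type cyclin-dependent kinases (23 counted features of 43) made up 0.0198% to 0.0512% of counts in autumn and 0.0333% to 0.0595% in spring, and in needles 0.0302% to 0.0454% and 0.0397% to 0.0868%. Features with fungal best hits (1764 counted of 3076) made up 0.634% to 1.96% in autumn roots and 0.734% to 1.21% in spring roots, and 0.619% to 0.923% and 0.622% to 1.02% in needles. Features listed for suberin and cork (33 counted of 58) stood at 0.0156% to 0.0393% in autumn roots and 0.0187% to 0.0344% in spring roots. Their median share was higher in needles (0.0432% in autumn, 0.0342% in spring) than in roots (0.0196% and 0.0255%). These features therefore do not mark root tissue here. In needles they stood at 0.0232% to 0.0598% in autumn, and in spring at 0.0135%, 0.0292%, 0.0571%, 0.0342% and 0.107% in trees 1 to 5. In spring needles the trees thus had the same order in this share as in LAR, lowest in tree 1 and highest in tree 5. The other lists had other orders. Cyclins and kinases were highest in tree 3 (0.0868%) and photosystem features in tree 2 (5.06%). Fungal best hits (1.02%) and the small chain of Rubisco (1.55%) were highest in tree 1, where LAR was lowest. Nothing is read from 1 matching order among these lists. The small chain of Rubisco (4 counted features of 6) had 0.132% to 0.249% of counts in autumn needles and 0.891% to 1.55% in spring needles, with no overlap. The part of these shares in the levels of the 3 features was not tested.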

How the data were processed

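RNA-seq of needles and roots was deposited as 1 table of raw read counts per feature and library, and the authors' tools named in the submitters' processing notes are CASAVA, HISAT2 and featureCounts, with no version. The reference build and the counting settings were not given in the sources used here. Per the labels' protocols both directional and non-directional libraries were made, without saying which library was which, so overlapping or antisense transcripts may add to a count. The deposited gene length column (other unit, in bases) was used for CPM per kilobase and the deposited best-hit names for enzyme names. No sequence is printed.

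The 24 libraries fall into 8 groups of 3, and 2 libraries were set aside for their photosystem share. The 3 features and all lists were chosen with earlier results of these data known. The marker name patterns were written after the table had been opened. The labels name no clone, pool or technical repeat. Libraries of 1 group differed by far more than counting noise, with a chi-square of at least 56.0 per degree of freedom. Of 51046 features, 22390 had no count in any library.

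R 4.3.3 and edgeR 4.0.16 (TMM; filterByExpr with a minimum count of 10 and a minimum total of 15; quasi-likelihood test) were fitted to the 11 needle libraries, to the 11 root libraries and to all 22, with 1 mean per group. P-values were adjusted by Benjamini-Hochberg over all features tested, with a threshold of 0.05. The SE given with an edgeR difference is its absolute value divided by the square root of the quasi-likelihood F statistic. For the root and within-season organ differences of the 3 features, this SE thus carries the withheld test, and nothing is read from it. DESeq2 1.42.0 and limma 3.58.1 served as alternatives. The season fits were also run on simulated counts with a common spread for all features and no tree or site effect. That run does not cover the spread of these libraries, and nothing is read from it. The same replicate number was taken as the same tree, since the labels speak of 6 independent trees. Deviations from group means in autumn and spring correlated within a tree by 0.171 to 0.374 in roots and by 0.251 to 0.562 in needles of trees 2 to 5, but by -0.326 in needles of tree 1. Site and season-by-site tests of the 3 features in roots had been planned, but their p-values are not given because they use the root groups of the choice. No season fit across organs was tested, so the 2 organs' values stand side by side. Bounds from 3 counts cover counting error only, because reads are not separate molecules.

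Named features are the 3 members, the feature with the highest mean CPM at each pathway step, the other features of the 3 enzymes, and the 5 nearest to each member. Other pathway features that passed a test were named after their values were seen.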

Additional observations from a re-analysis of the deposited data

Results flagged for a closer look

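CHS in the autumn roots of tree 5 at Ronda stood at 227.6 CPM, far above the other 5 autumn root libraries, which lay between 0.870 and 29.1 CPM. It was flagged because its gap to the next library took up most of the range of the 6. Of 12 groups looked at in this way it was the only one flagged, and chance flags about 1 in 20 groups. In a check chosen after seeing the data, the same library held the highest autumn root level for 59 of the 101 tested pathway features (58.4%), beside 17.6% of all 18538 features tested, and its chalcone synthase family summed to 9843 CPM. Without it the root season difference of CHS at Ronda was 3.78 in place of 2.03.

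LAR in the library labelled spring roots of tree 5 stood at 266.8 CPM. It was flagged because this library is outside the comparisons and the value is above the 5.99 to 16.3 CPM of the other spring root libraries. The value is also above the highest needle library used (97.2 CPM, spring needles of tree 5). The share of photosystem features in the same library was 2.78%.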

How the results depend on the processing

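Of 836 recomputed values 27 turned sign, 3 lost and 6 gained a call, and 50 that carry no test moved (differences by over 1 SD between libraries, counts of features by over 1.5 times). Of the 363 tested values that kept direction and side of the threshold, 84 moved by over 1.5 times. The settings were all 24 libraries as labelled, other size factors, no filter, DESeq2, the tree as a replicate block, the needles of tree 1 left out and each library left out. The cause of these changes was not tested.

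With the replicate block, LAR in needles was 9.50 (adjusted p = 0.0795), CHS in roots of Ronda 3.68, CHS for season by site in roots -3.68, LAR between organs -0.19, and 23 pathway features were higher in roots and 5 in needles. It changed no other call of the 3 features. As a random term in limma, it gave ANR between sites in spring needles 0.14 and LAR 0.038 in spring roots and 5.21 in autumn roots, and for LAR 3.28 in autumn needles and 3.24 in spring needles. With the libraries as labelled, LAR was 7.08 in roots of both sites, 5.62 in roots of Ronda, 3.21 between sites in spring roots, -2.92 for season by site in roots and -0.83 between organs. Other size factors gave LAR 0.0181 between sites in spring roots. DESeq2 gave 0.0176 there, 11.18 for LAR in needles of Yunquera (adjusted p = 8.62e-05), -5.58 for CHS and -6.38 for LAR in season by site in roots, 5.98 for CHS and 6.39 for LAR between sites in autumn roots, and 33 pathway features higher in roots and 22 in needles. Without the needles of tree 1, LAR in needles of Yunquera was 12.51 (adjusted p = 0.0319), ANR between organs -0.75, ANR between organs in autumn -0.12, and 22 pathway features were higher in needles.

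Leaving out 1 library gave these ranges. Needle season: CHS -0.64 to 1.09, ANR 0.32 to 1.11 and LAR 8.44 to 9.43 over both sites, LAR 10.59 to 12.48 at Yunquera (adjusted p = 0.0174 without the spring needles of tree 1), ANR -0.017 to 0.74 and CHS -2.13 to 0.56 at Ronda, and ANR -1.56 to 0.081 for season by site. Root season: LAR 5.20 to 6.55 over both sites and 8.0 to 10.70 at Yunquera, CHS 1.38 to 3.78 at Ronda, and CHS -6.28 to -3.88 and LAR -8.30 to -5.60 for season by site. Sites in autumn roots: CHS 4.23 to 6.51 and LAR 5.59 to 8.29. Sites in spring: ANR -0.61 to 0.66 and CHS -0.51 to 2.18 in needles, and CHS -0.30 to 0.99 and LAR -0.33 to 0.42 in roots. Organs: ANR -0.88 to -0.55, CHS -0.12 to 0.80 and LAR -0.22 to 0.66. Pathway features higher in spring numbered 2 to 27 in roots, where 10 of 11 omissions moved the count by over 1.5 times, and 5 to 17 in needles. Depth limits LAR in autumn, where counts were 0 to 51.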
